A study of Mus musculus with 6 samples.

Results

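Complement genes were compared between male C57BL/6J mice with high and with low weight gain on 1 diet, in RNA of inguinal fat. The genes considered were C1qa, C1qb, C1qc, C1ra, C2, C3, Cfb, Cfp and Serping1, 9 in all, and every probe whose only gene symbol in the probe annotation was one of these names was taken. This gave 8 probes for 7 of the 9 genes, among 13840 genes with such a probe. C1ra was represented by 2 probes and each of the other genes by 1. C3 and Cfp had no probe under that symbol and were not analysed here. Mice of both groups were housed singly and fed a high saturated fat diet, D12331, for 4 weeks from 8 weeks of age. The groups, high gainers and low gainers, differ in the labels only by this gain, and no other treatment is named. RNA of 8 mice was combined into 1 pool for each group, and each pool was hybridized to 3 arrays, so that n counts arrays and the p-values measure the technical spread between arrays of these 2 pools and not the variation between mice.

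Complement is a cascade of plasma proteins that tags microbes, immune complexes and dying cells for removal. The classical pathway starts when C1q binds a target and activates the proteases C1r and C1s, which cleave C4 and C2. The alternative pathway is driven by C3, factor B, factor D and properdin, and the lectin pathway starts from mannose-binding lectin and ficolins. Fat is a known source of several of these proteins. Factor D of adipocytes is also called adipsin, C1q is made mainly by macrophages, and stromal cells make C1r, C1s and the C1 inhibitor.

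Signals were linear intensities after quantile normalization by the authors, and a blank cell was treated as not measured. All 8 probes had a value on all 6 arrays, as had 15821 of 33012 probes in the table, and all probes with 6 values were tested together with limma on the log2 scale. A probe was called where its Benjamini-Hochberg adjusted p was under 0.01 and its fold change at least 1.5. The arrays held values for 18018 to 20605 probes, and with 3 arrays a pool the precision is limited. The log2 values of the arrays correlated at r = 0.988 to 0.994 within a pool and at r = 0.972 to 0.98 between pools. Of 17 adipocyte markers 13 were tested, with mean signals between the 52.2 and 99.9 percentile of the tested probes, and 4 had no probe under their symbol. Their coefficients of variation reached 35.9%, for Fabp4 in high gainers.

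None of the 7 complement genes was called higher or lower in high gainers. Across all tested probes 2.5% were called higher and 3.99% lower in high gainers, and 6.5% in either direction. The ratio of high to low gainers ran from 0.982 for C1ra to 1.34 for C1qa, and the median log2 ratio of the 7 genes was 0.06, beside 0.03 for all tested probes. At an unadjusted p under 0.05 from limma, 2 of the 7 genes, C1qa and Serping1, were higher in high gainers and 0 were lower, beside 17.4% and 13.6% of all tested probes. The test of the study's methods (unadjusted p under 0.01, at least 1.5-fold) called 0 in either direction, beside 3% higher and 4.29% lower of all tested probes. Signals of high and low gainers did not overlap for 3 of the 7 genes, C1qa, Cfb and Serping1, which were all higher in high gainers, while 0 were lower without overlap, beside 20.3% and 16.3% of all tested probes.

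**Figure D1:**
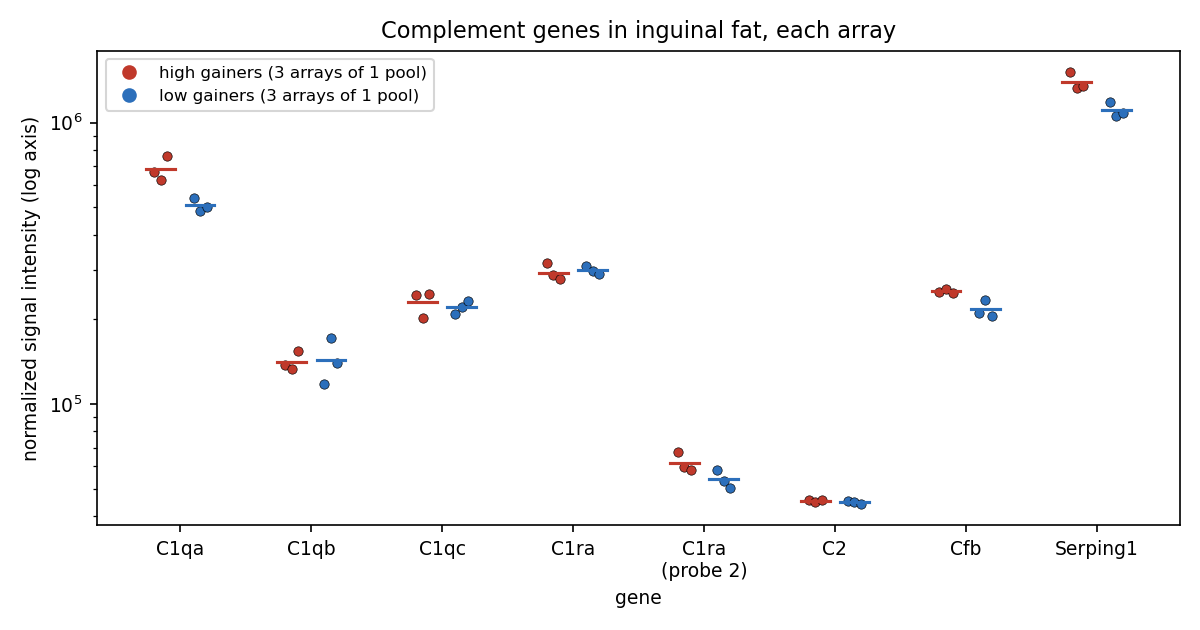
Normalized signal intensity (log axis) of the 8 probes of 7 complement genes by array, with high gainers in red and low gainers in blue (3 arrays each) and their means as short lines. Levels of different probes cannot be compared. C1qa, Cfb and Serping1 are the genes whose red points all lie above the blue ones, and C2 has nearly equal points on all 6 arrays.

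C1q, the recognition molecule of the classical pathway, is assembled from A, B and C chains encoded by C1qa, C1qb and C1qc. The chain genes are adjacent protein-coding genes on chromosome 4 in the order C1qb, C1qc, C1qa. The signal of C1qa was 667330, 624416 and 758626 on the high-gainer arrays and 540087, 483430 and 499937 on the low-gainer arrays. Every high-gainer array lay above every low-gainer array. The ratio was 1.34 with a 95% interval of 1.13 to 1.60 (log2 0.43, standard error 0.11), and C1qa was not called (adjusted p = 0.0377 from limma). C1qa lay at the 89.1 percentile of the log2 ratios of all tested probes.

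C1qb was at 137634, 132783 and 154110 in high gainers and at 117883, 171165 and 139760 in low gainers. Its highest and its lowest value were both found in low gainers, where the coefficient of variation was 18.7%, against 7.90% in high gainers. The ratio was 1.00 with a 95% interval of 0.785 to 1.27 (adjusted p = 0.999 from limma). C1qc was at 244129, 202370 and 245776 in high gainers and at 208907, 221144 and 233140 in low gainers, so that the groups overlapped. Its ratio was 1.04 with an interval of 0.867 to 1.25 (adjusted p = 0.78 from limma).

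The ratio of one chain to another within an array is not changed by centering the arrays. The log2 ratio of high to low gainers was larger for C1qa than for C1qb by 0.43 and than for C1qc by 0.37, and for each of these pairs the high-gainer arrays lay above all low-gainer arrays. The exact two-sided permutation test gave p = 0.1 for both pairs, which is the smallest value that 3 arrays against 3 allow, and 0.15 after adjustment over the 3 pairs. C1qb and C1qc differed by -0.06 (exact permutation p = 0.8). With 1 array left out the difference between C1qa and C1qb ranged from 0.25, without low gainers replicate 2, to 0.60, without low gainers replicate 1.

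**Figure D2:**
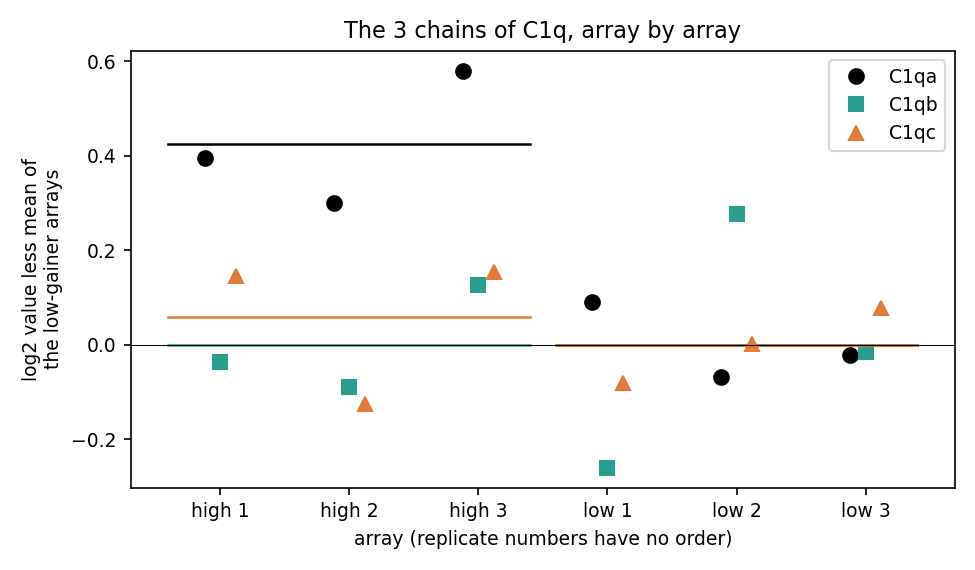
Log2 signal of C1qa, C1qb and C1qc on each array, less the mean of that gene over the low-gainer arrays; points are arrays and lines are means over the 3 arrays of a pool. C1qa averages 0.43 above its low-gainer mean in high gainers, while the means of C1qb and C1qc lie at 0.00 and 0.06.

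The sequences before the start of C1qb and C1qc are shown because these neighbors had ratios close to 1, with that of Cr2, the complement receptor gene with the largest change in the pathway, for contrast. The RefSeq table of promoters held 3 of the 7 genes, C1qb, C1qc and C1ra, and C1qa was not among them. C1ra, with a ratio of 0.982 for its brighter probe, is not shown. Each line gives the 250 bases before the annotated start, read 5' to 3' on the strand of the gene. Capitals mark matches to GAGGAA (a form of ETS factor sites such as those of PU.1), TTCNNNGAA (the form of many STAT sites) or TATAAA. Only these forms were searched, on both strands, and no matches overlapped. The windows are chr4:136886201-136886450 for C1qb, chr4:136892915-136893164 for C1qc and chr1:195176720-195176969 for Cr2, all on the minus strand of GRCm38.p6.
C1qb: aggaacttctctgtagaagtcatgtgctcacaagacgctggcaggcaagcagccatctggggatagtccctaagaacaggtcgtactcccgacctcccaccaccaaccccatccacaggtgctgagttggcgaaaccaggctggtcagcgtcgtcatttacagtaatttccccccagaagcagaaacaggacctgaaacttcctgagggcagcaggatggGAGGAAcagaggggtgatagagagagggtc
C1qc: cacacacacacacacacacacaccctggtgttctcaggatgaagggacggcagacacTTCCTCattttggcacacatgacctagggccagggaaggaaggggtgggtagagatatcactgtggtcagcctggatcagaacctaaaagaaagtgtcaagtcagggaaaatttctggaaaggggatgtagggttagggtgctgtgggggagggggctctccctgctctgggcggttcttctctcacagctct
Cr2: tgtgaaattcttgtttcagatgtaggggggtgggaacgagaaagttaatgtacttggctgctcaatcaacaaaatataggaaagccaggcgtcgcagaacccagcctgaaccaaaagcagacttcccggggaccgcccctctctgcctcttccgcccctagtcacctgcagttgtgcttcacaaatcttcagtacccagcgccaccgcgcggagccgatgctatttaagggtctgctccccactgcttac
C1qb and C1qc each held 1 match to GAGGAA, from 30 to 25 and from 193 to 188 bases before the start, and none to the other motifs. GAGGAA was found in 23.3% of 32851 promoters of this length, TTCNNNGAA in 7.02% and TATAAA in 12.4%. None of these motifs was found in the window of Cr2.

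C1ra encodes the protease C1r, which is activated within the C1 complex and then cleaves C1s. Its brighter probe was at 316367, 286546 and 277070 in high gainers and at 308625, 296482 and 289797 in low gainers, and its other probe at 67407, 59710 and 58149 and at 58342, 53329 and 50296. The groups overlapped for both probes. The ratio was 0.982 for the brighter probe (95% interval 0.841 to 1.15, adjusted p = 0.889 from limma) and 1.14 for the other (0.962 to 1.36, adjusted p = 0.272). C1rb, a near copy of C1ra, had no probe under its own symbol, so whether these probes also bind its transcript was not tested. C1rl, the adjacent gene for a C1r-like protease, was at 12322, 12259 and 15199 in high gainers and 12306, 13477 and 14215 in low gainers, with a ratio of 0.991 (0.815 to 1.21).

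C2 and Cfb are neighboring genes on chromosome 17 that encode the catalytic subunits of the classical and the alternative C3 convertase. C2 was at 45679, 44980 and 45452 in high gainers and at 45212, 44640 and 44176 in low gainers. The coefficient of variation was 0.786% and 1.16%, and the ratio was 1.02 (95% interval 0.886 to 1.16, adjusted p = 0.892 from limma). Cfb was at 250789, 256714 and 248255 in high gainers and at 210130, 235074 and 205568 in low gainers, and the groups did not overlap. Its ratio was 1.16 (0.997 to 1.36) and it was not called (adjusted p = 0.169 from limma).

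Serping1 encodes the C1 inhibitor, a serpin that blocks C1r, C1s and plasma kallikrein. Its signal was 1510138, 1330423 and 1348150 in high gainers and 1183542, 1058624 and 1084936 in low gainers, and the groups did not overlap. The ratio was 1.26 (95% interval 1.07 to 1.48, log2 0.33, standard error 0.10) and Serping1 was not called (adjusted p = 0.0643 from limma). From the top down, quantile normalization left the first 437 ranks with the same value on each of the 6 arrays. Serping1 lay among them, at ranks 56 to 90 in high gainers and 130 to 173 in low gainers, so its values carry its rank on each array. C1qa lay among them in high gainers, at ranks 308 to 393, and just below them in low gainers, at ranks 456 to 511.

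The 95% intervals of 6 of the 7 genes lay within a 1.5-fold change in either direction, as did those of 58.1% of all tested probes, and that of C1qa reached 1.60. These intervals cover the spread between arrays and not that between mice. Centering on the adipocyte markers, by their median change, lowered each log2 ratio by 0.165 (a shift of -0.165), and 188 probes were then higher and 956 lower in high gainers, in place of 396 and 632. With 13 tested markers this median was the log2 ratio of 1 probe, that of Fabp4. The ratio of Fabp4 was imprecise, with a log2 95% interval of -0.415 to 0.745 (adjusted p = 0.706 from limma). Its coefficient of variation was 35.9% in high gainers. Of the 7 genes, 5 had a log2 ratio above 0 without this centering, and with it C1qc (-0.11) and C2 (-0.14) turned below 0. No setting called any of the 7 genes.

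**Figure D3:**
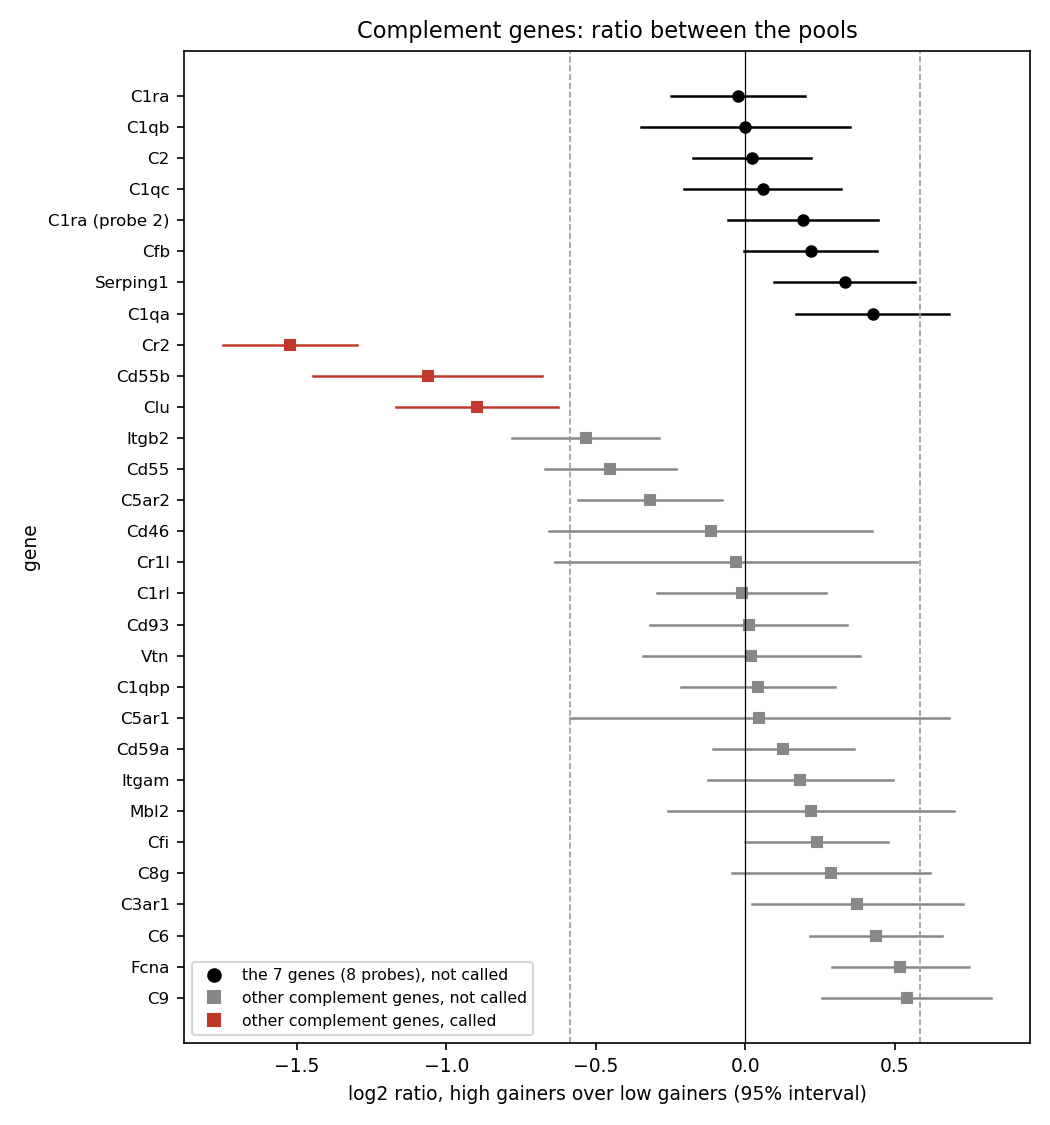
Log2 ratio of high over low gainers with its 95% interval from limma for the 8 probes of 7 complement genes (black circles) and for 22 other complement genes (squares; red, called), with dashed lines at a 1.5-fold change. The intervals of the black circles lie within the dashed lines except that of C1qa, and Cr2, Cd55b and Clu are the called genes.

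Beyond these 7 genes, a list of 43 other complement components, regulators and receptors was examined, of which 22 had values on all arrays. None was called higher and 3 were called lower in high gainers by limma and by the methods' test, beside 2.5% and 3.99% of all tested probes by limma. At an unadjusted p under 0.05 from limma 4 were higher and 6 lower, beside 17.4% and 13.6% of all tested probes, and the median log2 ratio was 0.03. Of the other 21 genes, 12 had no probe under their symbol, among them Cfd, C4a, C4b and C1s1, and 9 had a probe that was blank on some or all arrays.

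Cr2, the complement receptor of B lymphocytes and follicular dendritic cells that binds C3 fragments, fell most among these genes. It was at 8133, 9365 and 8588 in high gainers and at 25535, 24231 and 25083 in low gainers, and the groups lay far apart. This is a 2.87-fold lower level in high gainers (95% interval 2.46 to 3.36, log2 -1.52, standard error 0.10, adjusted p = 0.000206 from limma). Lymphocyte markers were lower in the same pool. Of 12 markers 8 were tested and 7 of these were called lower, beside 3.99% of all tested probes. Cd3e was blank on 1 of the 3 high-gainer arrays and Blk on all of them. The summed signal of the tested markers was 127199 to 129131 in high gainers and 430821 to 458734 in low gainers. Their part in the result for Cr2 was not tested, and in RNA of whole tissue fewer cells of a type cannot be told apart from less RNA per cell. The study names lymphatic tissue as an example of contaminating cells in inguinal fat, and its share in these pools was not tested.

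Clu encodes clusterin, a secreted chaperone that also inhibits the terminal complement complex. It was at 433743, 425731 and 423789 in high gainers and at 919139, 716143 and 767711 in low gainers. The level among high gainers was 1.86-fold lower (95% interval 1.54 to 2.24, adjusted p = 0.00236 from limma). All low-gainer arrays lay above all high-gainer arrays. The call was lost without high gainers replicate 1 or 2 (adjusted p = 0.0144 and 0.0127) and without low gainers replicate 3 (adjusted p = 0.0103). The call was also lost at a 2-fold threshold and by the methods' test with Benjamini-Hochberg adjustment (adjusted p = 0.0225). Of 10 epithelial markers 5 were tested and 3 of these, Krt8, Krt18 and Cdh1, were called lower in the same pool, while Cldn3 (ratio 1.14) and Elf3 (ratio 0.825) overlapped between the groups. The probes of Krt18, Cdh1 and Elf3 were dim. Of the untested markers, Epcam was at 14220, 12152 and 11672 in low gainers and had 1 value, 1001, in high gainers. Esrp1, Krt19 and Cldn7 were blank on all high-gainer arrays and had values on 3, 2 and 2 low-gainer arrays. Prom2 had 1 probe with a value on 1 array of each pool and another with 1 low-gainer value. The summed signal of the 5 tested markers was 23010 to 32196 in high gainers and 53623 to 56489 in low gainers. Skeletal muscle markers were lower as well (8 of 9 tested called lower). Among all tested probes 3.99% were called lower. The part of either in the result for Clu was not tested.

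Cd55b and its neighbor Cd55 encode forms of decay-accelerating factor, a membrane protein that speeds the decay of C3 convertases, and as near copies they may share probes, which was not tested. Cd55b, measured by a dim probe at the 10.9 percentile of signal, was at 2384, 2278 and 1676 in high gainers and at 4632, 4757 and 3761 in low gainers. It was 2.09-fold lower in high gainers (95% interval 1.60 to 2.73, adjusted p = 0.00536 from limma). The call was lost without high gainers replicate 1 or 2 (adjusted p = 0.014 and 0.0164) and without low gainers replicate 1 or 2 (adjusted p = 0.0209 and 0.0231). Cd55 was at 72321, 76696 and 68546 and at 103162, 95296 and 98856, without overlap, and was not called (ratio 0.731, adjusted p = 0.0174 from limma). Of the regulator genes in a row with Cr2 on chromosome 1, its direct neighbor Cr1l and Cd46, beyond Cr1l, both had dim probes. Cr1l had a ratio of 0.979 (95% interval 0.644 to 1.49) and Cd46 one of 0.923 (0.635 to 1.34). Neither was called, and both intervals included a 1.5-fold fall.

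**Figure D4:**
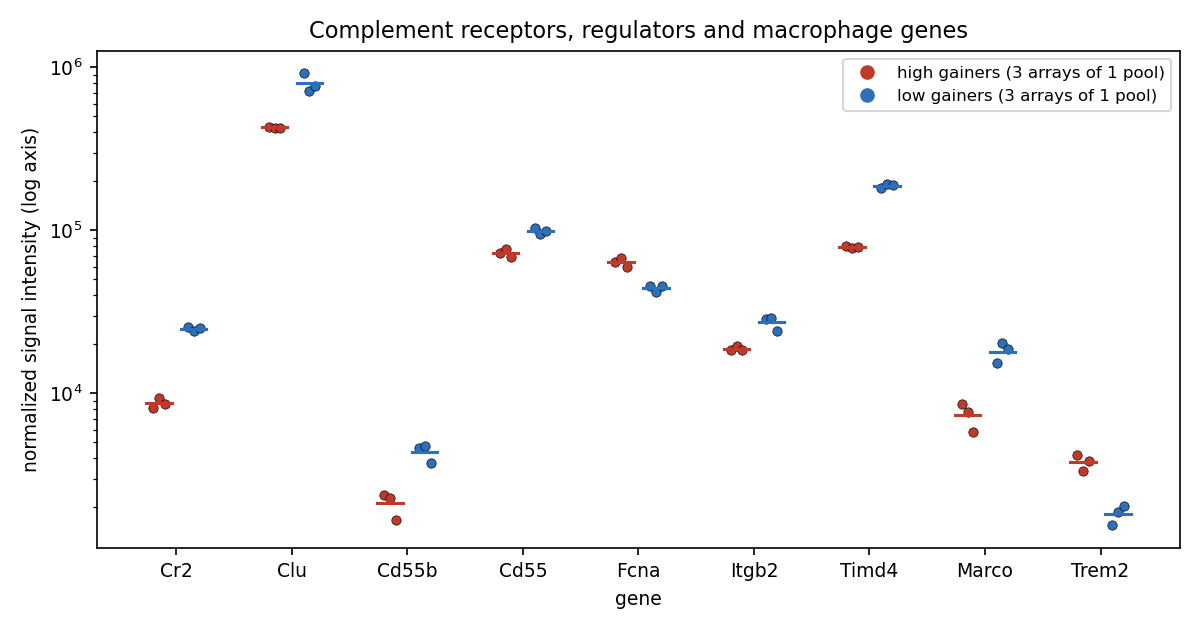
Normalized signal intensity (log axis) on each array of 6 other complement genes, Cr2 to Itgb2, and of 3 macrophage genes, Timd4 to Trem2, red for high gainers and blue for low gainers, with short lines at the means; levels of different probes are not comparable. The red and blue points do not overlap for any of the 9 genes shown, and Fcna and Trem2 are the genes with the red points on top. Of all 22 tested other complement genes, 5 were higher and 6 lower without overlap, beside 20.3% and 16.3% of all tested probes.

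No tested component of the lectin or terminal pathway was called. Fcna, the ficolin of mouse macrophages and a starter of the lectin pathway, was at 64139, 67559 and 59199 in high gainers and at 45439, 42001 and 45729 in low gainers (ratio 1.43, 95% interval 1.22 to 1.68, adjusted p = 0.0119 from limma). The groups did not overlap. C6, a component of the membrane attack complex, was at 14619, 14892 and 14697 and at 11079, 10056 and 11555 (ratio 1.35, 1.16 to 1.58, adjusted p = 0.0203), again without overlap. C9, which forms the pore of this complex, had a dim probe and a ratio of 1.45 (1.19 to 1.77, adjusted p = 0.0234). The groups overlapped for the other tested components. Mbl2, a mannose-binding lectin, had a ratio of 1.16 (0.836 to 1.62). C8g, a chain of C8 with a dim probe, had one of 1.22 (0.970 to 1.53).

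Among receptors, C1qbp, which encodes a C1q-binding protein found mainly in mitochondria, was at 47321, 55565 and 49928 in high gainers and at 45415, 53606 and 49284 in low gainers (ratio 1.03, 95% interval 0.862 to 1.23). C3ar1, the receptor of the fragment C3a, had a ratio of 1.30 (1.01 to 1.65, adjusted p = 0.141 from limma) with a dim probe. C5ar2, a receptor of C5a, had one of 0.801 (0.678 to 0.947, adjusted p = 0.0777). For the integrin chains of complement receptor 3, Itgam had a dim probe and a ratio of 1.14 (0.917 to 1.41). Itgb2, the chain shared by the leukocyte integrins, had a ratio of 0.691 (0.583 to 0.819, adjusted p = 0.0142 from limma). With centering on the change of the adipocyte markers Itgb2 (log2 -0.70) and Cd55 (log2 -0.62) passed both thresholds, and 5 genes of the list were then lower.

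Macrophages are the usual source of C1q. Of 20 macrophage markers 15 were tested, 1 was called higher and 2 were called lower in high gainers, beside 2.5% and 3.99% of all tested probes, with none of the tested blank and a median log2 ratio of 0.09. Their summed signal was 2408163 to 2530542 in high gainers and 2640195 to 2900885 in low gainers. The bright probes of the lysozyme genes Lyz1 (ratio 0.744) and Lyz2 (ratio 0.853) made up most of this sum, while 10 of the 15 markers had a ratio above 1. Timd4, a phosphatidylserine receptor of resident macrophages, was at 79740, 78051 and 78847 in high gainers and 182528, 191171 and 189428 in low gainers. The groups lay apart, with a 2.38-fold lower level among high gainers (limma, adjusted p = 0.000226). Marco, a scavenger receptor, was at 8648, 7637 and 5807 and at 15248, 20267 and 18608, also without overlap, and was 2.47-fold lower (adjusted p = 0.00285).

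Trem2, a lipid-sensing receptor of myeloid cells with a dim probe, was at 4160, 3350 and 3824 in high gainers and 1552, 1876 and 2030 in low gainers, 2.08-fold higher in high gainers (adjusted p = 0.00241 from limma). The call of Marco was lost without high gainers replicate 2 (adjusted p = 0.0127) and when low gainers replicate 2 (0.0131) or replicate 3 (0.0127) was left out. That of Trem2 was lost without high gainers replicate 1 (0.0143) or replicate 3 (0.0101) and when low gainers replicate 2 was left out (0.0104). Both calls were also lost with the array number as a block (adjusted p = 0.0105 for Marco and 0.0108 for Trem2). The methods' test with Benjamini-Hochberg adjustment lost both as well (adjusted p = 0.0395 for Marco and 0.0298 for Trem2). Cd163, a scavenger receptor of resident macrophages, had a ratio of 1.35 (95% interval 1.17 to 1.56, adjusted p = 0.0151) and was not called. Among the other uncalled macrophage markers the ratio ran from 0.744 for Lyz1 to 1.31 for Mertk. It was 1.00 for Adgre1, with a dim probe (95% interval 0.707 to 1.43), 1.097 for Mrc1 and 0.860 for Ms4a7.

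Medians of the other marker lists are given as descriptions, without a test of any list. By limma 2.5% of all tested probes were called higher and 3.99% lower in high gainers. The median log2 ratio was 0.39 for 13 stromal and progenitor markers, with 3 called higher and 1 lower, 0.23 for 9 endothelial markers, with 0 called by limma or by the methods' test and 4 higher at an unadjusted p under 0.05 (beside 17.4% of all tested probes), and 0.16 for 13 adipocyte markers, with 1 called higher. It was -1.81 for the 8 lymphocyte markers, -0.69 for 10 dendritic cell markers, with 4 called lower, and -0.85 for 9 skeletal muscle markers, with 8 called lower. Neutrophil markers had a median of 0.49 over 6 tested genes, with 1 called lower by limma, and 1 higher and 1 lower by the methods' test. At an unadjusted p under 0.05 from limma 3 were higher and 2 lower, beside 17.4% and 13.6% of all tested probes. How far each cell type contributed to the complement signals was not tested.

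**Figure D5:**
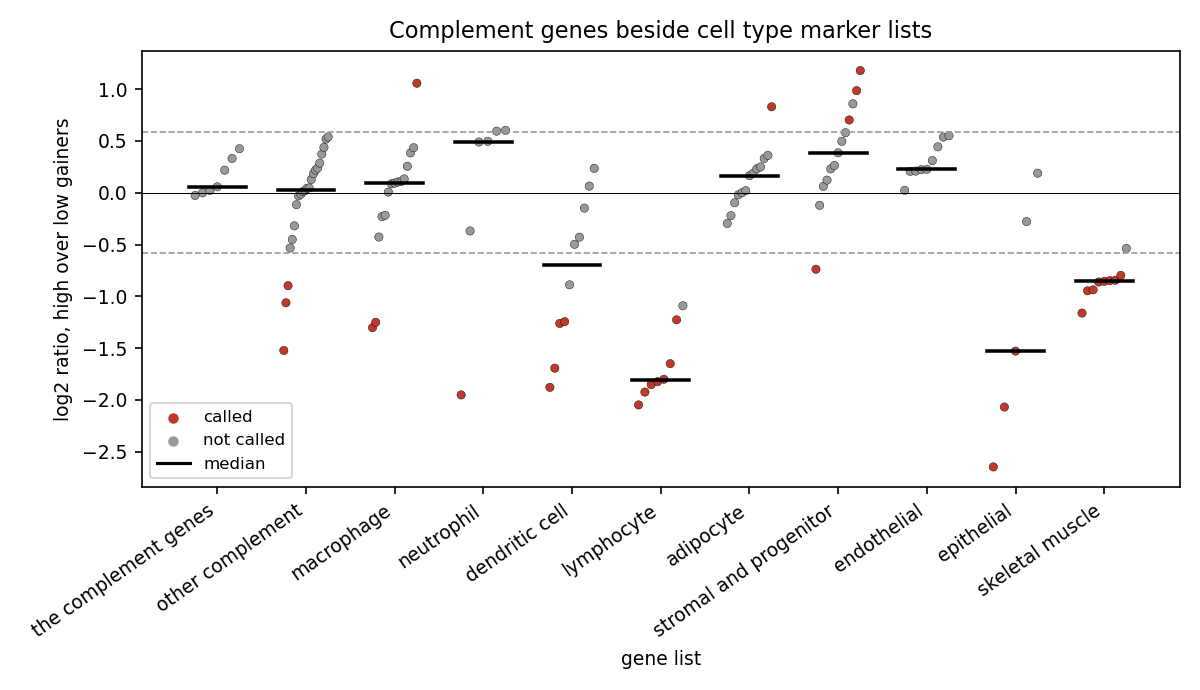
Ratio of high to low gainers (log2) in 11 lists, with a point for each tested gene (called genes in red, the others in gray), a black line at the median and dashed lines at a 1.5-fold change. The 7 complement genes lie between -0.03 and 0.43 with a median of 0.06, while the lymphocyte markers have a median of -1.81; centering on the adipocyte markers would shift every point by -0.165.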

How the data were processed

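The authors labeled cRNA made from 1 μg of pooled RNA, detected it by chemiluminescence on Applied Biosystems mouse arrays and normalized by the quantile method. Deposited values were linear intensities, and the methods kept features past thresholds of signal to noise and of a quality flag as detected, without saying whether these left the blank cells. After log2 transformation, the 15821 probes with 6 values were fitted in R 4.3.3 with lmFit and eBayes of limma 3.58.1, tested on simulated data. Exact permutation tests used SciPy 1.17.1. A single symbol was annotated for 14411 of 33012 probes, and 14402 were brought up to date with RefSeq (GRCm38.p6), to which all coordinates belong. Genes with more than 1 probe are given by the brightest in counts, and dim means the lowest 33.3% by mean.

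The genes and lists were chosen with earlier results of these data known. Beside the 7 genes, the rule named called genes of the pathway and macrophage lists and the brightest gene of each role. C9, C3ar1, C5ar2, Itgam, Itgb2, Cd55, Cr1l, Cd46, Cd163, Mbl2, C8g and the other marker genes in the text were picked with their values in view. Genes of like pattern were to be named for called members, of which there were 0. Alternatives were other normalizations, filters, an offset, a trend, fold thresholds, the methods' test, a replicate block, the mean over probes and leaving out each array.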

Additional observations from a re-analysis of the deposited data

How the results depend on the processing

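With 20 alternative settings, 0 of the 7 complement genes was called in either direction, and 0 of the other complement genes was called higher. The number of other complement genes called lower was 3, became 5 with centering on the change of the adipocyte markers, 1 without the probes below the median and 1 by the methods' test with Benjamini-Hochberg adjustment, and ranged from 1 to 3 with 1 array left out. Without the probes below the median Cr2 and Cd55b were not tested. The 1 gene left by the methods' test with Benjamini-Hochberg adjustment was Cr2. An offset of the 10th percentile (2848) took Cd55b to a log2 ratio of -0.54 and Trem2 to 0.51, below the fold threshold. Cr2 and Timd4 were called with each array left out. Log2 ratios near 0 changed sign in places. With centering on the adipocyte markers C1qc became -0.11, C2 -0.14 and C1qbp -0.12, and the mean over both probes of C1ra was 0.084 against -0.03. With 1 array left out C1qb ranged from -0.13 to 0.14, C1ra from -0.082 to 0.014, C1rl from -0.11 to 0.040 and C1qbp from -0.021 to 0.10, and the difference between C1qa and C1qc ranged from 0.32 to 0.45 and that between C1qb and C1qc from -0.15 to 0.079. C1qa had an adjusted p of 0.00775 with an intensity trend and robust estimation, with a ratio below the fold threshold. The number of all probes called ranged from 46 to 491 higher and from 111 to 956 lower over the settings, with the lowest numbers by the methods' test with adjustment, and from 105 to 319 and from 368 to 493 with 1 array left out. The array number as a replicate block gave 173 probes higher and 446 lower and 0 calls among the 7 genes, with 3 other complement genes lower. The deviations of same-numbered arrays correlated at r = 0.0377, -0.11 and 0.266. High gainers replicates 1 and 3 correlated best with the low-gainer array of their own number, and replicate 2 did not. The numbers were not taken as pairs in the main fit. The sets of 3 arrays limit the precision, and the causes of these shifts were not tested.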

Other observations

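Some complement genes had a value on only some arrays and entered no comparison. Vsig4, a macrophage receptor for C3 fragments, had values on 2 high-gainer arrays, 818 and 1971, and was blank on all low-gainer arrays. C4bp, a fluid-phase inhibitor, had values of 2334 and 1159 on 2 high-gainer arrays and none in low gainers. Mbl1, a mannose-binding lectin, was at 1093 and 4782 on 2 high-gainer arrays and at 1209 on 1 low-gainer array. C8b, of the membrane attack complex, was at 949 and 1025 on 2 high-gainer arrays and at 822 on 1 low-gainer array. Masp1, a lectin pathway protease, had 1 value, 479, in high gainers, while Masp2, another such protease, had 769 and C8a 587 in low gainers. Colec10 and Hc, which encodes C5, were blank on all arrays. A blank cell gives no level, so no fold was computed for these genes.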
